A study of Drosophila melanogaster with 6 samples.

Results

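The 9 genes described here encode the proteins that find a DNA double-strand break, join its ends and signal its presence: *Ku80*, *Irbp*, *mre11*, *rad50*, *nbs*, *tefu*, *mei-41*, *lok* and *grp*. They were taken by gene symbol from a table of 17606 genes, and the set was put together with earlier results of these data known, so the counts of called genes are a description of these genes. The table was made from total RNA of whole larvae of the fruit fly *Drosophila melanogaster* in the third instar and holds 3 samples of *ecd1* and 3 of the control *w1118*. Animals of the *ecd1* group were homozygous for a temperature-sensitive allele of *ecd*, a point mutation that changes a proline to a serine, and *w1118* is the laboratory line with a mutant *white* gene. All larvae spent 10 days at 18°C and then 2 days at the restrictive temperature of 29°C, and 8 larvae were pooled in each sample. No *ecd1* samples from the permissive temperature were analysed here, and backcrossing of *ecd1* to *w1118* is stated for lifespan experiments and not for these larvae, so the allele and the background cannot be told apart. The sources used here do not give the animals' sex.

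A double-strand break can be sealed by end joining or copied from an intact DNA molecule by homologous recombination. In classical end joining, the Ku ring, a pair of the proteins Ku70 and Ku80, slides onto the broken ends, which are then sealed by DNA ligase 4 with its partner XRCC4. The complex of Mre11, Rad50 and Nbs also binds ends, trims them for recombination and activates the kinase ATM, while the related kinase ATR responds to single-stranded DNA. Both kinases pass the signal to the effector kinases Chk2 and Chk1, which stop the cell cycle or, in dividing tissues such as the imaginal discs of the larva, start cell death through p53. In flies, ATM and the Mre11 complex are also known for keeping chromosome ends from fusing.

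The values are normalized counts, that is, the number of read pairs counted for a gene divided by 1 size factor per sample, and they gave back whole reads for each sample. The recovered reads came to 74581798 to 118102006 per sample, and the 9 genes had between 535 reads (*mei-41*) and 4310 reads (*rad50*) in a sample. Counting error at these depths was at most 4.32% of a value, and it covers counting only. Reads fell evenly on both strands (fraction on 1 strand 0.5 to 0.503), so reads from overlapping genes cannot be assigned by strand. The mean insert size was 160.6 to 163.1 bases in *w1118* and 138.2 to 139.2 in *ecd1*, without overlap, and its part in the results was not tested. Replicate 1 of *w1118* stood apart from the other *w1118* samples, with Spearman correlations across genes of 0.973 and 0.974 where they had 0.995 with each other. In that sample *Sgs3*, a gene of the salivary glue, had 233485 normalized counts against 39.3 to 124 in the other 5 samples, and the summed counts of 13 proliferation markers came to 41675 there against 22676 to 29025 elsewhere. All 15 markers of larval tissues were above 0 in every sample, and 1 was called higher in *ecd1* (*NimC1*, a hemocyte gene, log2 fold change 0.59, adjusted p = 0.0170 from limma) and 1 lower (*Jon99Ciii*, a gut protease gene, −1.88, adjusted p = 0.00408). The fat body genes *Lsp1alpha* (804431 to 2123560 normalized counts in *w1118*, 2429 to 610164 in *ecd1*) and *Lsp2* (9869 to 111565 and 40.5 to 9379) were lower without overlap but were not called (adjusted p = 0.0983 and 0.0595 from limma). *alphaTry* was also lower without overlap and not called (adjusted p = 0.166). The muscle genes *Mhc* (552810 to 726651 and 956229 to 1077350) and *Act57B* (1001070 to 1278190 and 1375210 to 1692690) were higher without overlap and not called (adjusted p = 0.0524 and 0.233 from limma). Of all genes tested, 26.9% were lower and 26.7% higher in *ecd1* without overlap. The part of these shifts in the results was not tested. Of 16 testis markers 10 were called lower in *ecd1* and 0 higher (summed counts 13380 to 19361 in *w1118* and 5169 to 7824 in *ecd1*). Beside these marker counts, 16.0% of all genes tested were called higher and 19.1% lower. The transcript of *ecd* itself had 1563 to 2085 normalized counts in *w1118* and 2111 to 2397 in *ecd1* (change of 0.38 on the log2 scale, limma adjusted p = 0.0769), which does not check the allele, since a point mutation need not change the level.

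The genes are taken in the order in which their proteins act: the Ku pair, the Mre11 complex, the apical kinases and the effector kinases, followed by partners of each. All 9 genes passed the filter on low values, a mean of at least 10 normalized counts over the 6 samples. Changes are given as the difference in the mean of log2(normalized count + 1), *ecd1* minus *w1118*, with the standard error (SE). A gene was called higher or lower at an adjusted p below 0.05 from limma, adjusted over all 12930 genes tested. Of the 9 genes, 5 were called higher, 0 lower and 4 neither, where 16.0% of all genes tested were called higher and 19.1% lower. At an unadjusted p below 0.05, 6 were higher and 1 lower in limma. The shares of all genes given above are for adjusted p, and those at this looser threshold were not counted. With edgeR, 6 of the 9 were called higher and 0 lower, where 2244 and 2397 of all 12930 genes tested were. With DESeq2, 6 were called higher and 1 (*lok*) lower, where 2547 and 2936 of 12875 genes were. The median change of the 9 genes was 0.43 and that of all genes tested 0.01. The 3 called genes that changed at least 2-fold were *Irbp*, *Ku80* and *mre11*, all higher. Of all 12930 genes tested, 659 were called higher and 1897 lower with a change of at least 2-fold. The 9 changes ran from 1.43 for *Irbp* to −0.45 for *grp*. In RNA of whole larvae, fewer cells of a type and less RNA per cell cannot be told apart.

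**Figure D1:**
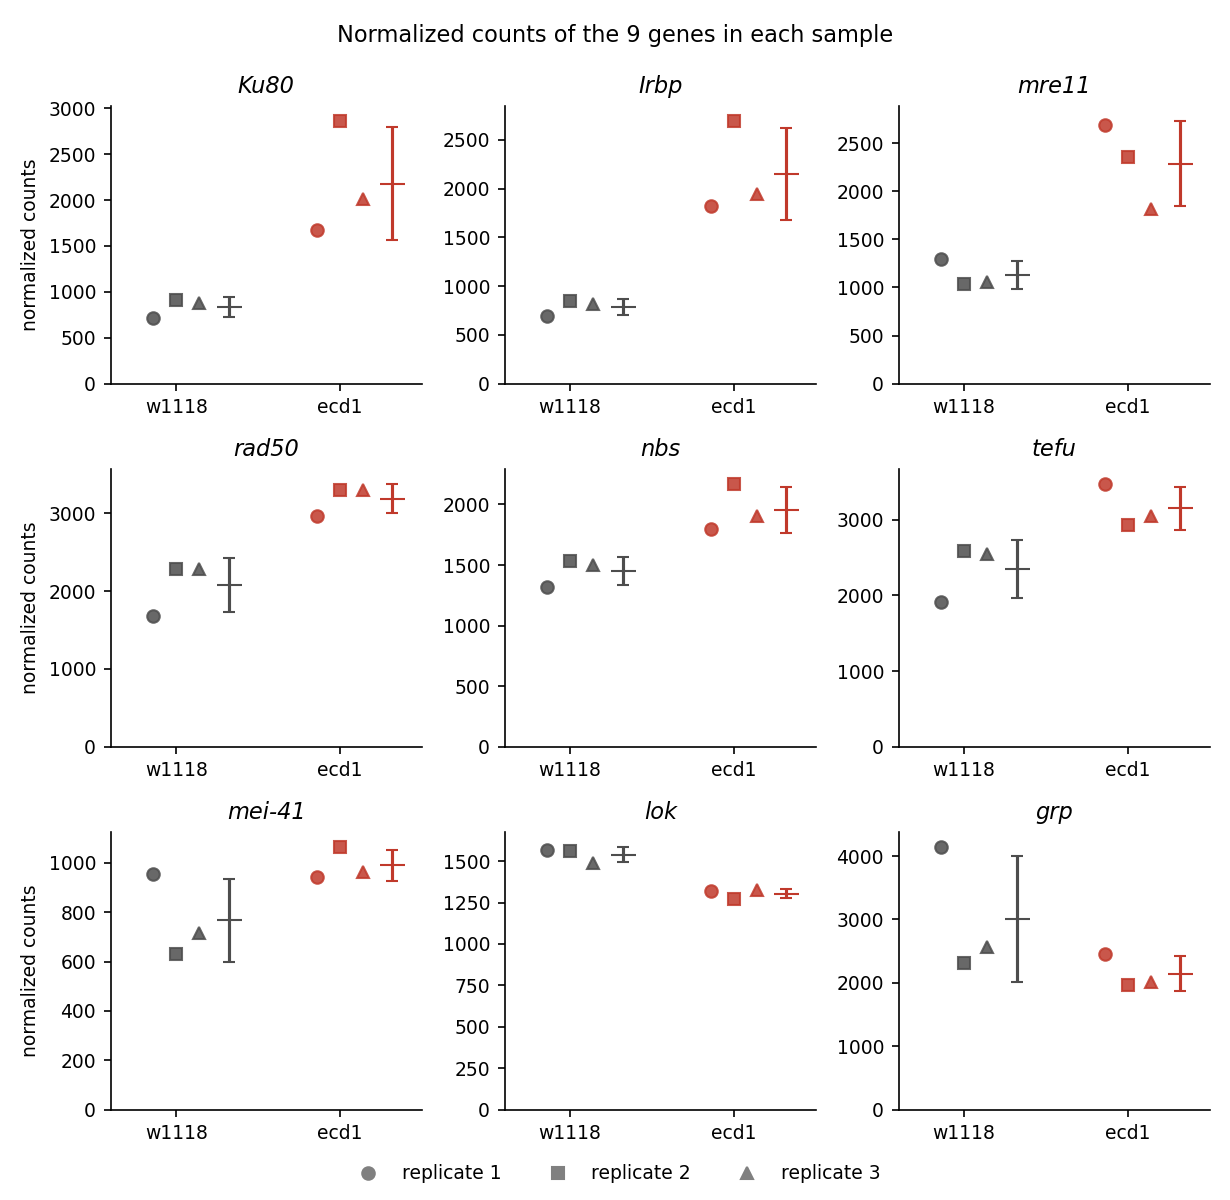
Normalized counts of the 9 genes (vertical axes, starting at 0) in each of the 3 *w1118* samples (grey) and 3 *ecd1* samples (red), with the symbol giving the replicate number and the bars the mean and SD. *Ku80*, *Irbp*, *mre11*, *rad50*, *nbs* and *tefu* were above all *w1118* samples in all *ecd1* samples, *lok* was below, and *mei-41* and *grp* overlapped between the genotypes.

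The Ku genes showed the largest changes of the 9. *Irbp*, the fly Ku70 gene (FBgn0011774, dm6 chromosome 3R, 11410047 to 11412440, plus strand, 2.149 kb of exon in 2 blocks), had 695.1, 845.8 and 816.3 normalized counts in the *w1118* replicates, given in the order 1 to 3 here and throughout, and 1818, 2690 and 1944 in those of *ecd1*. Every *ecd1* sample lay above every *w1118* sample, and *ecd1* replicate 2 stood highest. The mean went from 785.7 ± 79.9 to 2151 ± 472 (SD, n = 3 samples each), a log2 fold change of 1.43 (SE 0.18, 95% interval 1.02 to 1.85, adjusted p = 0.00413 from limma). Only 3.47% of the genes tested had a higher log2 fold change than *Irbp*.

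*Ku80*, its partner in the ring (FBgn0041627, chromosome 2L, 15768630 to 15771159, minus strand, 2.304 kb of exon in 5 blocks), had 716.5, 911.8 and 876.2 normalized counts in *w1118* and 1668, 2858 and 2006 in *ecd1*. The order of the samples was that of *Irbp* in both genotypes, with replicate 1 lowest and replicate 2 highest, and the genotypes did not overlap. Its mean went from 834.8 ± 104.0 to 2177 ± 613 (SD, n = 3 samples each), with a log2 fold change of 1.35 (SE 0.21, 95% interval 0.85 to 1.86, adjusted p = 0.00604 from limma). The spread among *ecd1* samples, a coefficient of variation of 28.2% for *Ku80* and 21.9% for *Irbp*, was wider than among *w1118* samples (12.5% and 10.2%). Both genes stayed called in all 14 other settings tried, which changed the pseudocount, filter, scaling or test, added the block or left out 1 sample, and in which the change ran from 1.14 to 1.53 for *Ku80* and from 1.26 to 1.55 for *Irbp*.

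The Ku genes, which lie on different chromosomes, kept nearly equal levels per length. The ratio of *Irbp* to *Ku80*, in normalized counts per kb of exon, was 1.04, 0.994 and 0.999 in *w1118* and 1.17, 1.01 and 1.04 in *ecd1*. The genotypes overlapped, and the log2 ratio differed by 0.08 (exact two-sided permutation test, p = 0.3, 0.5 after adjustment over 5 ratios). With 3 samples against 3, the smallest p this test can give is 0.1.

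Likeness of profiles was measured as the root mean square difference of log2(normalized count + 1) over the 6 samples, after centring each gene on its mean. Among 10353 genes with a mean of at least 100, *Ku80* was the second nearest gene to *Irbp* (0.0792), after *Aatf* (0.0698), and *CG2064* (0.0920), *Ndg* (0.0956) and *CG13185* (0.105) followed. The nearest to *Ku80* were *Ndg*, which encodes the basement membrane protein nidogen (0.0450), *CG13185* (0.0641), *Irbp* (0.0792), *CG2909* (0.108) and *Aatf* (0.111). For *mre11*, the nearest were *Naprt*, a gene of NAD synthesis (0.126), *RPA3*, a subunit of the protein that coats single-stranded DNA (0.126), *CG31549* (0.128), *asRNA:CR44321* (0.138) and *CG13810* (0.140). *Irbp* and *mre11* differed by 0.371, which put *mre11* at place 491 in the order from *Irbp*. The measure describes 6 samples that share the same differences between genotypes.

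**Figure D2:**
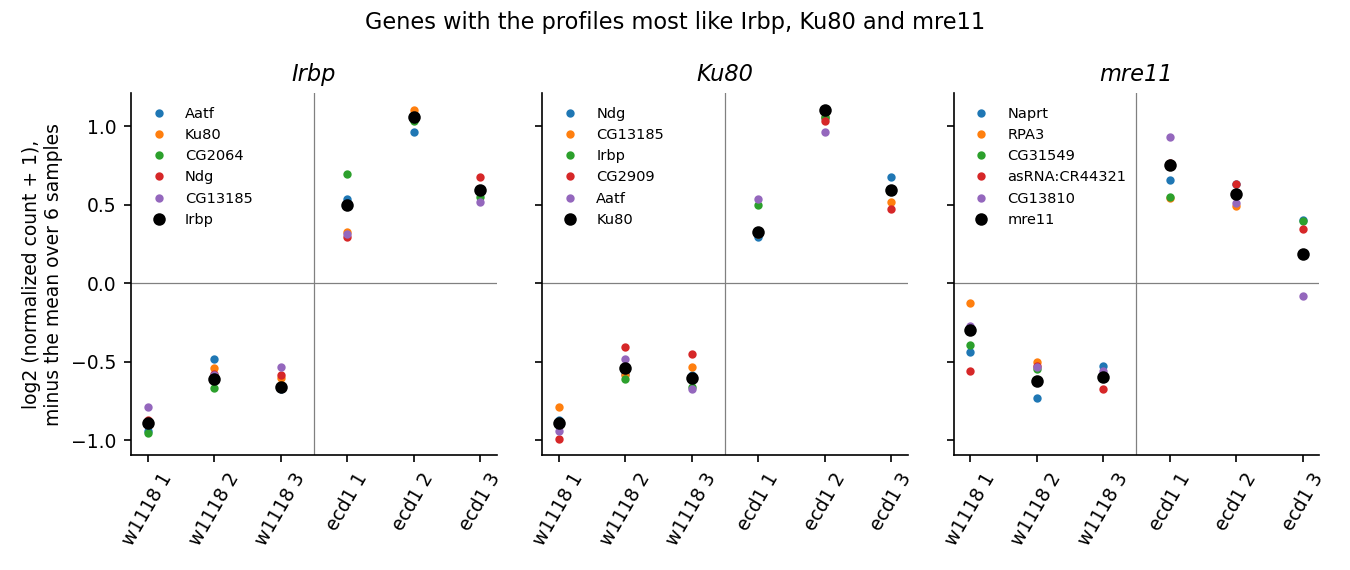
Centred log2(normalized count + 1) of *Irbp*, *Ku80* and *mre11* (black) and of the 5 genes nearest to each (colours) in the 6 samples. *Irbp* and *Ku80* shared the peak in *ecd1* replicate 2, while *mre11* was highest in *ecd1* replicate 1 and its nearest genes lay farther off (0.126 to 0.140) than those of *Ku80* (0.0450 to 0.111).

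The genes of the Mre11 complex were all called higher, by unequal amounts. *mre11* encodes the nuclease (FBgn0020270, chromosome 2L, 11282090 to 11284335, plus strand, 2.013 kb of exon in 5 blocks) and had 1294, 1035 and 1052 normalized counts in *w1118* and 2686, 2361 and 1814 in *ecd1*. The genotypes did not overlap, although replicate 1, the lowest *w1118* sample for the Ku genes, was here the highest of its genotype on both sides. The mean rose from 1127 ± 145 to 2287 ± 441 (SD, n = 3 samples each), a log2 fold change of 1.01 (SE 0.17, 95% interval 0.60 to 1.42, adjusted p = 0.00713 from limma), and it stayed called in all 14 other settings (0.88 to 1.17). Of all genes tested, 6.46% had a higher log2 fold change.

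*rad50*, which encodes the long coiled-coil ATPase that holds ends together (FBgn0034728, chromosome 2R, 22421013 to 22425482, plus strand, 4.072 kb of exon in 8 blocks), had 1679, 2279 and 2288 normalized counts in *w1118* and 2969, 3292 and 3294 in *ecd1*. Here *w1118* replicate 1 was the low sample, and the *ecd1* samples lay close together and above all *w1118* samples. The mean rose from 2082 ± 349 to 3185 ± 187 (SD, n = 3 samples each), a log2 fold change of 0.63 (SE 0.14, 95% interval 0.28 to 0.97, adjusted p = 0.0169 from limma). The call was lost without *ecd1* replicate 2 (0.60, adjusted p = 0.0668) or replicate 3 (0.60, adjusted p = 0.0533). Of all genes tested, 13.3% had a higher change.

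*nbs*, named after the human Nijmegen breakage syndrome gene, encodes the subunit that recruits ATM (FBgn0261530, chromosome 3L, 9720414 to 9723194, minus strand, 2.599 kb of exon in 4 blocks). It had 1318, 1532 and 1504 normalized counts in *w1118* and 1795, 2167 and 1902 in *ecd1*. The genotypes did not overlap, and the gap between the highest *w1118* and the lowest *ecd1* sample was narrow. The mean rose from 1451 ± 117 to 1955 ± 191 (SD, n = 3 samples each), a log2 fold change of 0.43 (SE 0.12, 95% interval 0.15 to 0.71, adjusted p = 0.0312 from limma). This call was lost without replicate 2 or 3 of either genotype, where the adjusted p from limma was 0.0597 and 0.0746 for *w1118* and 0.116 and 0.0727 for *ecd1*.

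Within the complex, the ratio of *mre11* to *rad50* per kb of exon was 1.56, 0.918 and 0.931 in *w1118* and 1.83, 1.45 and 1.11 in *ecd1*. It overlapped between the genotypes because of *w1118* replicate 1 (difference of log2 ratios 0.38, exact two-sided permutation p = 0.3, adjusted 0.5), and without that sample the difference was 0.63. The ratio of *nbs* to *rad50* was 1.23, 1.05 and 1.03 in *w1118* and 0.947, 1.03 and 0.905 in *ecd1*, again with overlap (difference −0.20, exact p = 0.2, adjusted 0.5). Because this test cannot give a p below 0.1, it could not decide whether *mre11* changed more than *rad50*.

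**Figure D3:**
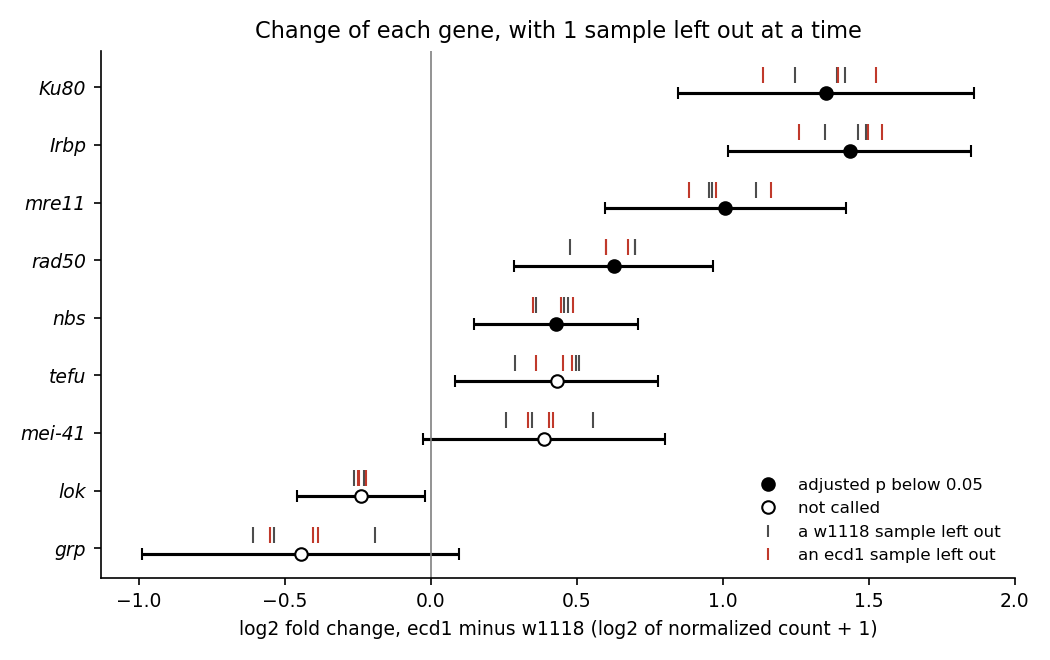
Log2 fold change of each gene (*ecd1* minus *w1118*, horizontal axis) with its 95% interval. Filled circles are genes called at an adjusted p below 0.05 from limma, and ticks give the change with 1 *w1118* sample (grey) or 1 *ecd1* sample (red) left out. All ticks of *Ku80*, *Irbp* and *mre11* lie above 0.8, and the rightmost tick of *grp* (−0.19) is the change without *w1118* replicate 1.

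The apical kinases did not pass the test. *tefu*, the fly ATM gene, whose loss makes telomeres fuse (FBgn0045035, chromosome 3R, 15232212 to 15242236, minus strand, 8.416 kb of exon in 29 blocks), had 1914, 2595 and 2553 normalized counts in *w1118* and 3472, 2933 and 3058 in *ecd1*. All *ecd1* samples lay above all *w1118* samples, with replicate 1 lowest in *w1118* and highest in *ecd1*. The means were 2354 ± 382 and 3154 ± 282 (SD, n = 3 samples each), and the log2 fold change of 0.43 (SE 0.15, 95% interval 0.08 to 0.78) had an adjusted p of 0.0588 from limma. It was called with TMM scaling in limma (0.47, adjusted p = 0.0402), with edgeR (0.46, adjusted p = 0.0435) and with DESeq2 (0.42, adjusted p = 0.0397), and in none of the other 11 settings.

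*mei-41*, the fly ATR gene, needed for meiotic crossovers and for the checkpoint in dividing cells (FBgn0004367, chromosome X, 16391698 to 16399850, plus strand, 7.899 kb of exon in 5 blocks), had 956.9, 631.1 and 713.9 normalized counts in *w1118* and 943.9, 1063 and 961.3 in *ecd1*. The lowest *ecd1* sample lay below *w1118* replicate 1 and above both other *w1118* samples. The means were 767.3 ± 169 and 989.5 ± 64.5 (SD, n = 3 samples each), with a log2 fold change of 0.39 (SE 0.17, 95% interval −0.03 to 0.80, adjusted p = 0.128 from limma). Without *w1118* replicate 1 it was 0.56 and called (adjusted p = 0.0162 from limma), and in the other 13 settings it was not called.

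The ratio of *tefu* to *mei-41* per kb of exon was 1.88, 3.86 and 3.36 in *w1118* and 3.45, 2.59 and 2.99 in *ecd1*. The *ecd1* ratios fell within the *w1118* range, and the log2 ratios differed by 0.04 (exact two-sided permutation p = 0.9, adjusted 0.9). The sign rested on single samples, since the difference was −0.27 without *w1118* replicate 1 and −0.06 without *ecd1* replicate 1.

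The effector kinases had negative changes that did not pass the test. *lok*, the fly Chk2 gene (FBgn0019686, chromosome 2L, 20061422 to 20064381, plus strand, 2.439 kb of exon in 6 blocks), had 1566, 1563 and 1487 normalized counts in *w1118* and 1318, 1271 and 1323 in *ecd1*. The samples of each genotype lay closer together than for any of the other 8 genes, with coefficients of variation of 2.92% and 2.20%, and the genotypes did not overlap. The means were 1539 ± 45.0 and 1304 ± 28.7 (SD, n = 3 samples each), a log2 fold change of −0.24 (SE 0.09, 95% interval −0.46 to −0.02, unadjusted p = 0.0375, adjusted p = 0.0866 from limma). DESeq2 on the recovered reads called it lower (−0.24, adjusted p = 0.0298), and the other 13 settings did not.

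*grp*, the fly Chk1 gene, which slows the rapid division cycles of the early embryo (FBgn0261278, chromosome 2L, 16680054 to 16699926, plus strand, 3.049 kb of exon in 10 blocks), had 4139, 2317 and 2560 normalized counts in *w1118* and 2462, 1960 and 2013 in *ecd1*. Replicate 1 of *w1118* stood far above the other samples, and without it the genotypes still overlapped. The means were 3006 ± 989 and 2145 ± 276 (SD, n = 3 samples each), with a log2 fold change of −0.45 (SE 0.23, 95% interval −0.99 to 0.10, adjusted p = 0.170 from limma), and it was called in none of the 14 other settings. Without *w1118* replicate 1 the change was −0.19 (adjusted p = 0.268 from limma). The summed proliferation markers were also highest in that sample. Of those 13 markers, the mitotic genes *polo* (−1.05, adjusted p = 0.00827 from limma) and *CycA* (−1.02, adjusted p = 0.0243) were called lower in *ecd1* and *RnrL*, a gene of nucleotide synthesis, higher (0.72, adjusted p = 0.0308), with a median of −0.11. Their part in the levels of *grp* and *lok* was not tested.

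The ratio of *lok* to *grp* per kb of exon was 0.473, 0.843 and 0.726 in *w1118* and 0.669, 0.811 and 0.822 in *ecd1*. The genotypes overlapped (difference of log2 ratios 0.21, exact two-sided permutation p = 0.7, adjusted 0.875), and the difference turned to −0.035 without *w1118* replicate 1.

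Counted by overlap of the samples, 6 of the 9 genes had every *ecd1* sample above every *w1118* sample and 1 had every *ecd1* sample below, where 26.7% and 26.9% of all genes tested did so. The same-numbered samples of both genotypes deviated together across all genes, and the difference within each number was positive in all 3 numbers for *Ku80* (1.22, 1.65 and 1.19 on the log2 scale), *Irbp* (1.39, 1.67 and 1.25), *mre11* (1.05, 1.19 and 0.79), *rad50* (0.82, 0.53 and 0.53), *nbs* (0.45, 0.50 and 0.34) and *tefu* (0.86, 0.18 and 0.26). It was negative in all 3 for *lok* (−0.25, −0.30 and −0.17) and *grp* (−0.75, −0.24 and −0.35), and only *mei-41* was mixed (−0.02, 0.75 and 0.43). Where the genotypes did not overlap, any pairing gives the same sign, so these signs add nothing to the counts by overlap. Only for *grp* and *mei-41*, whose samples overlapped, was the sign not fixed in this way. Adding the replicate number to the limma fit as a block changed no call among the 9 genes.

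Levels per length, in normalized counts per kb of exon, put the genes in a different order in each genotype. In *w1118* larvae, *grp* was highest (986 ± 325, SD, n = 3 samples), followed by *lok* (631 ± 18.4), *mre11* (560 ± 71.9), *nbs* (558 ± 44.9), *rad50* (511 ± 85.6), *Irbp* (366 ± 37.2), *Ku80* (362 ± 45.2), *tefu* (280 ± 45.4) and *mei-41* (97.1 ± 21.4). Samples of neighbours in this order did not overlap between *grp* and *lok*, *rad50* and *Irbp*, *Ku80* and *tefu*, and *tefu* and *mei-41*, and the remaining neighbours overlapped.

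In *ecd1* larvae, *mre11* was highest (1136 ± 219, SD, n = 3 samples), followed by *Irbp* (1001 ± 219), *Ku80* (945 ± 266), *rad50* (782 ± 45.9), *nbs* (752 ± 73.6), *grp* (704 ± 90.4), *lok* (535 ± 11.8), *tefu* (375 ± 33.5) and *mei-41* (125 ± 8.17). Neighbours from *mre11* down to *grp* overlapped in their samples, and *grp* and *lok*, *lok* and *tefu*, and *tefu* and *mei-41* did not. The Ku genes thus stood below *rad50*, *nbs* and *lok* in level per kb in *w1118* and above them by their means in *ecd1*, while *mei-41* was lowest in both.

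**Figure D4:**
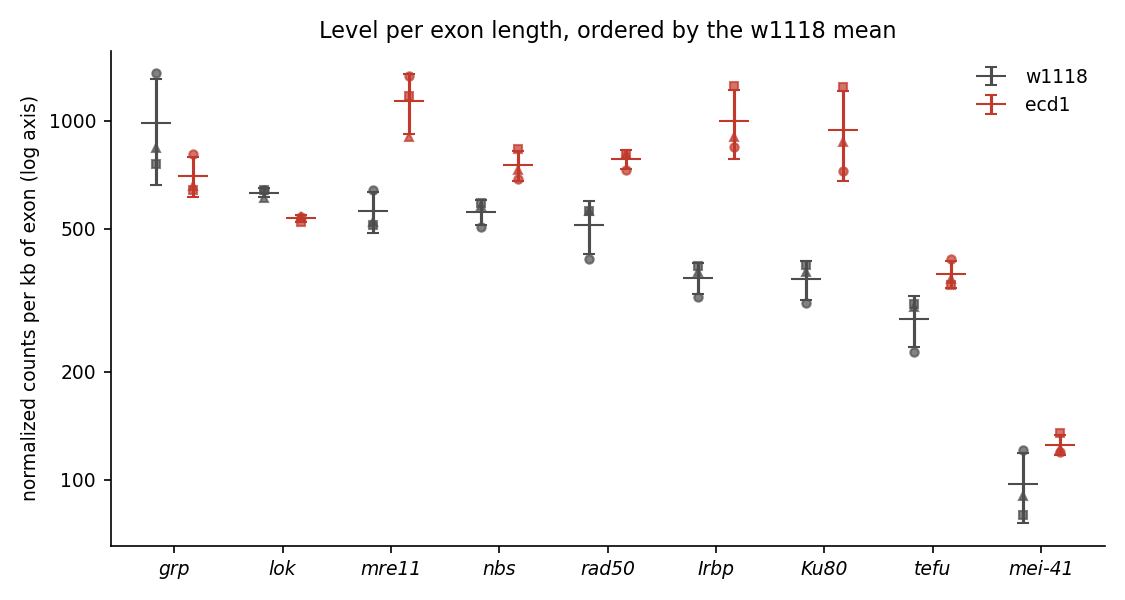
Normalized counts per kb of exon on a log axis for the 9 genes, ordered by their mean in *w1118* (grey) and shown beside *ecd1* (red), with points for samples and bars for the mean and SD of 3 samples. The Ku genes moved from 362 and 366 in *w1118* to 945 and 1001 in *ecd1*, and *grp* from 986 to 704.

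Gene structure and neighbours were compared because the libraries carry no strand and because *ecd* is studied for its part in splicing. The exons of *Ku80*, *Irbp*, *rad50* and *tefu* overlap no exon of another gene in the annotation. Those of *mre11* share 9 bases with *Osi21*, those of *nbs* 51 bases with *CG14174* and those of *mei-41* 69 bases with *CG9981*, at most 1.96% of their exon length. *lok* shares 121 bases (4.96%) with *vls* on the other strand, which was called higher (log2 fold change 0.55, adjusted p = 0.0228 from limma), opposite in sign to *lok*. *grp* shares 223 bases (7.31%) with *squ* on the same strand, which was called lower (−1.10, adjusted p = 0.0112 from limma), 143 bases with *asRNA:CR44975* and 6 with *CR43669*. The sources used here do not say how reads in shared bases were counted, and their part in the values of *lok* and *grp* was not tested.

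Genes next to the 9 were looked up within 1000 bases, a rule chosen after the main values had been seen. Of 13 such genes tested, 3 were called higher and 1 lower (30.8% called, against 35.1% of all genes tested in either direction). *Irbp* has a called gene on each side: *mgr*, 171 bases before its start on the opposite strand (0.73), and *Ranbp9*, 81 bases after its end (0.57), both with a smaller change than the 1.43 of *Irbp*. *mRpS29*, 636 bases before *rad50*, was higher by 0.90, and *barr*, 51 bases before *lok*, lower (−0.56). The tested neighbours of *Ku80*, *CG31826* and *wek*, were not called (0.11 and 0.03), nor were those of *mre11*, *nbs*, *tefu*, *mei-41* and *grp*.

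*Irbp*, with 2 exon blocks, and *Ku80* and *mre11*, with 5 each, had the largest changes of the 9 genes. *mei-41*, also with 5, had a change of 0.39. The others were *nbs* (4 blocks, 0.43), *lok* (6, −0.24), *rad50* (8, 0.63), *grp* (10, −0.45) and *tefu* (29, 0.43). The part of block number in these changes was not tested. Over all genes tested, those of 1 block had a median change of −0.28, those of 2 to 5 blocks −0.01, those of 6 to 10 blocks 0.07 and those of 11 or more blocks 0.14. The 3 largest changes thus belonged to the class of 2 to 5 blocks, in which 15.2% of 7052 genes were called higher.

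Partner genes of break repair were counted in the same fit. In 5 lists of partners (end joining, homologous recombination, checkpoint, telomere capping and radiation-induced cell death) 52 genes were matched and 50 tested, of which 7 were called higher (14%) and 5 lower (10%), where 16.0% and 19.1% of all genes tested were, with a median of 0.01 in both. Partners and the 9 genes were not compared by a test. When replicate number was blocked in limma, these counts were 8 higher and 8 lower, where 1999 and 2718 of all 12930 genes tested were.

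Among 12 end joining partners, 2 were called higher (16.7%) and 3 lower (25%), shares near the 16.0% and 19.1% of all genes tested, with a median of −0.07. The 5 called genes are given with their values and were not tested as a group. *CG3448*, the fly XRCC4 gene, had 139.2, 212.3 and 162.3 normalized counts in *w1118* and 347.0, 539.3 and 368.8 in *ecd1*, with replicate 2 highest on both sides as for the Ku genes (change 1.28, SE 0.25, limma adjusted p = 0.00982). *DNAlig4*, which encodes the ligase that works with it, had 928.3, 830.4 and 932.7 in *w1118* and 1202, 1597 and 1330 in *ecd1* (0.61, SE 0.14, adjusted p = 0.0162), and its call was lost without *w1118* replicate 2 (adjusted p = 0.0549) or *ecd1* replicate 2 (adjusted p = 0.0599). In both genes all *ecd1* samples lay above all *w1118* samples. *CG12728*, a gene with XLF1 among its synonyms, had a log2 fold change of −0.15 (adjusted p = 0.502 from limma).

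The partners called lower were *Parp*, *DNAlig3* and *DNApol-theta*. *Parp*, which encodes the poly(ADP-ribose) polymerase that binds broken DNA, had 3541, 3985 and 3715 normalized counts in *w1118* and 2068, 1589 and 1658 in *ecd1* (change −1.09, SE 0.13, limma adjusted p = 0.00374). *DNAlig3*, named for mammalian DNA ligase 3, had 5633, 5162 and 4589 in *w1118* and 2583, 3393 and 2828 in *ecd1* (−0.81, SE 0.13, adjusted p = 0.00660). *DNApol-theta*, the polymerase that pairs short repeats at the ends, had 1089, 1294 and 1155 in *w1118* and 777.9, 875.4 and 912.5 in *ecd1* (−0.46, SE 0.12, adjusted p = 0.0284), a call that was lost without replicate 2 or 3 of *w1118* or replicate 1 or 2 of *ecd1* (adjusted p 0.0778 to 0.0937). Of the 12 end joining partners, these 3 had every *ecd1* sample below every *w1118* sample and 3 others had every one above. Of all genes tested, 26.9% and 26.7% did so. The 3 lower genes were picked by their calls, so the lack of overlap adds nothing to the calls. *DNApol-theta* was named after the values had been seen. Other listed partners that act with such proteins were not called, among them *XRCC1*, known as the partner of ligase 3 in mammals (0.15, adjusted p = 0.351 from limma), the flap nuclease gene *Fen1* (−0.0044, adjusted p = 0.987) and *CtIP*, a gene of end trimming (−0.13, adjusted p = 0.576). The testis markers were lower in *ecd1* as were *Parp*, *DNAlig3* and *DNApol-theta*, and their part in those decreases was not tested.

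**Figure D5:**
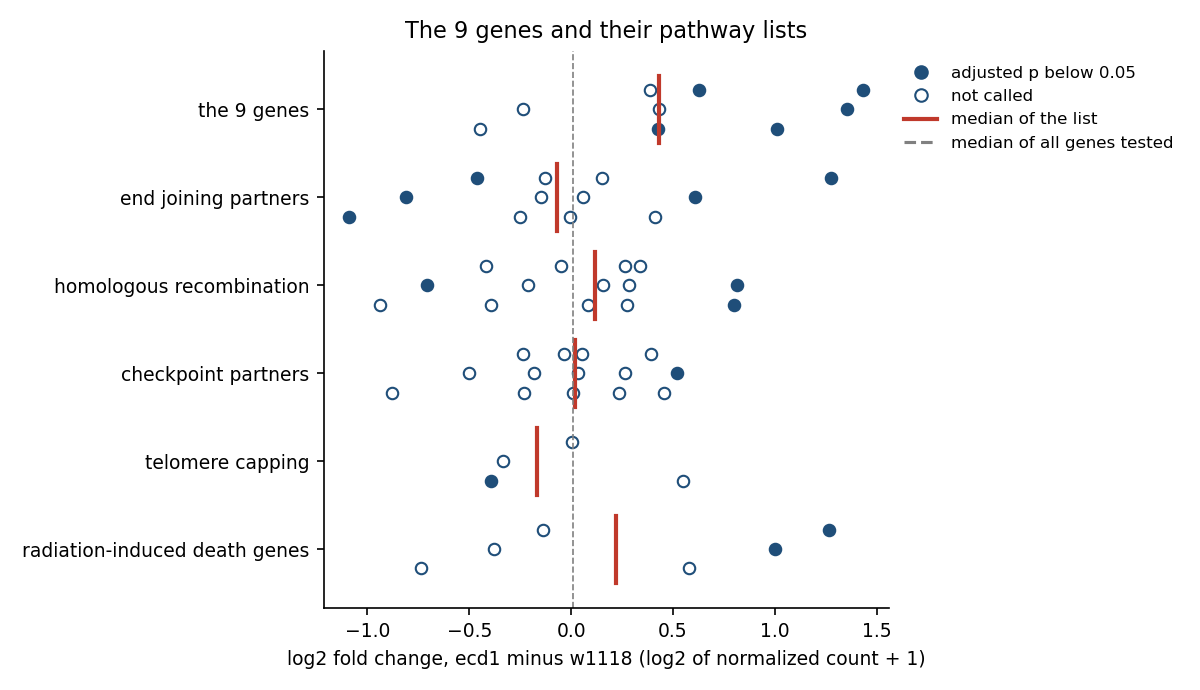
Log2 fold change (*ecd1* minus *w1118*) of the 9 genes and of the tested genes of 5 partner lists, filled where the adjusted p from limma was below 0.05, with the list median in red and the median of all genes tested (0.01) as a dashed line. The median of the 9 genes was 0.43, and those of the lists lay between −0.17 and 0.22.

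Of 14 genes of homologous recombination, 2 were called higher (14.3%) and 1 lower (7.14%), with a median of 0.12. Of all genes tested, 16.0% were called higher and 19.1% lower. The higher ones were subunits of the protein that coats single-stranded DNA, *RPA3* (0.81, SE 0.17, adjusted p = 0.0120 from limma, 0.0530 without *ecd1* replicate 2) and *RpA-70* (0.80, SE 0.14, adjusted p = 0.00705). The remaining subunit, *RPA2*, had a change of 0.08 (adjusted p = 0.685). The lower one was *mms4*, the partner of the nuclease Mus81 (−0.71, SE 0.21, adjusted p = 0.0363), whose call was lost whenever 1 sample was left out (adjusted p 0.0593 to 0.127) and without the filter on low values (0.0568).

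Of 14 checkpoint partners tested, 1 was called higher (7.14%, against 16.0% of all genes tested) and 0 lower (against 19.1%), with a median of 0.02. The higher one was *p53*, through which Chk2 acts in flies, with 678.4, 666.5 and 731.1 normalized counts in *w1118* and 899.6, 1131 and 954.1 in *ecd1* (0.52, SE 0.13, adjusted p = 0.0233 from limma). Its samples did not overlap, but the call was lost without replicate 2 or 3 of either genotype (adjusted p 0.0525 to 0.0924). *Rad1* was listed at 0 in all 6 samples and not tested, and all of its exon bases lie within exons of *Sws1*.

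Of 4 telomere capping genes tested, 1 was called lower (25%, against 19.1% of all genes tested, median −0.17). It was the gene of heterochromatin protein 1a (FBgn0003607, −0.39, SE 0.12, adjusted p = 0.0401 from limma). Its call was lost with edgeR (adjusted p = 0.0641), with TMM scaling (0.0692) and in limma without the trend (0.0717). It was also lost when any 1 sample except *w1118* replicate 1 was left out (adjusted p 0.0501 to 0.138 from limma). *moi* was listed at 0 in all 6 samples, and all of its exon bases lie within exons of *Tgs1*.

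Of 6 genes that radiation induces on the way to cell death, 2 were called higher (33.3%) and 0 lower (median 0.22). Of all genes tested, 16.0% were called higher and 19.1% lower. They were *Xrp1*, a transcription factor gene and p53 target (1.26, SE 0.20, adjusted p = 0.00611 from limma), and *hid*, which encodes an antagonist of the caspase inhibitor Diap1 (1.0, SE 0.23, adjusted p = 0.0161). The call of *hid* was lost without *w1118* replicate 2 or 3 or *ecd1* replicate 2 (adjusted p 0.0517 to 0.0618). *rpr*, the related cell death gene that *p53* activates after irradiation, had a change of −0.38 (SE 0.24, adjusted p = 0.257) with overlapping samples. The remaining genes, also not called by limma, were *skl* (−0.74, adjusted p = 0.106), *Corp* (0.58, adjusted p = 0.0867) and *egr* (−0.14, adjusted p = 0.450). With the replicate block, 3 genes of this list were called higher and 1 lower, where 1999 and 2718 of all 12930 genes tested were.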

How the data were processed

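Total RNA of pooled larvae was sequenced as read pairs, and per the labels the authors aligned them to dm6 with TopHat2 2.0.10 and counted them per gene with featureCounts 1.6.4. Settings for strand, shared reads and repeated matches, and the DESeq2 version, are not given in the sources used here. The deposited normalized counts are a signal, that is, counts over the size factor of each sample (0.840 to 1.31). The deposited sequencing report gave the fraction of reads on 1 strand and the insert size. The authors' own fold changes, p-values, GO terms and splicing scores were not used, and every column of per-sample values had a sample.

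Steps between low values gave what 1 read is worth, and with it 100% of non-zero values were whole numbers of reads, to within 0.05. log2(normalized count + 1) was tested with limma 3.58.1 (R 4.3.3), with an intensity trend, genotype as the only term, for 12930 of 17606 genes with a mean of at least 10, adjusted by Benjamini-Hochberg. It called 2064 genes higher and 2474 lower. On the recovered reads, edgeR 4.0.16 called 2244 and 2397 and DESeq2 1.42.0 called 2547 and 2936. The samples are given as biological replicates of pooled larvae, and p-values measure the spread between them. Exons and positions came from Ensembl release 115 on dm6, in which 17527 identifiers were found. 1 list gene, *peo*, was not matched, and no DNA or protein sequence was used here.

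Deviations from the genotype mean correlated by 0.209, 0.232 and 0.225 between samples of the same number and by −0.274 to 0.0541 between different numbers. No source says what the numbers stand for. The main limma fit and the ratio tests did not pair the samples. The numbers were used only for the block, an alternative fit, and for the differences within each number. The genes, lists and tests were chosen with earlier results of these data known. Named were all 9 genes, up to 4 called genes of each list with the largest change and a mean of at least 50, the 5 nearest profiles of *Irbp*, *Ku80* and *mre11*, and genes with overlapping exons. Other genes were named after their values had been seen. Alternatives were pseudocounts of 0.5 and 5, no filter, no trend, TMM scaling, edgeR, DESeq2, the block and leaving out each sample.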

Additional observations from a re-analysis of the deposited data

How the results depend on the processing

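Over 14 alternatives, *Irbp*, *Ku80* and *mre11* kept direction and call, and *rad50* and *nbs* kept direction and were called in 12 and 10. No gene of the 9 changed direction. Leaving out 1 sample gave 3 to 6 of the 9 genes called higher (3 without *ecd1* replicate 2 or 3) and 0 lower, 891 to 2437 genes higher and 1475 to 2741 lower among all tested, and 3 to 11 partner genes higher and 2 to 4 lower. DESeq2 called 1 of the 9 lower. With the replicate block, 8 partner genes were called lower, where 2718 of all 12930 genes tested were. In that fit no call changed among the 9 genes or the 12 partners called without the block. The ratio of *tefu* to *mei-41* ran from −0.27 to 0.25 with 1 sample left out, and that of *lok* to *grp* from −0.035 (without *w1118* replicate 1) to 0.38, so neither kept its sign. The other ratios kept theirs: *Irbp* to *Ku80* 0.02 to 0.12, *mre11* to *rad50* 0.21 to 0.63, and *nbs* to *rad50* −0.25 to −0.12. Scaling moved the median of all genes by at most 0.04. The causes were not tested. Counting error, at most 4.32% of a value, was below the spread between samples for each of the 9 genes except *lok*.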
